A study of Mus musculus with 4 samples.

Results

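The nuclear genes of the respiratory chain and of ATP synthase were compared between 2 mouse fibroblast lines. Members were the probe sets whose platform annotation gives a single gene symbol that starts with Ndufa, Ndufb, Ndufc, Ndufs, Ndufv, Uqcr, Atp5 or Cox4 to Cox8, or that equals Sdha, Sdhb, Sdhc, Sdhd or Cyc1. The rule reads symbols and no measured value. It gave 180 of 45037 probe sets, which stand for 91 of the 18193 genes with a probe set of their own. They fall into 42 genes of complex I, 4 of complex II, 9 of complex III, 19 of complex IV and 17 of complex V. Ndufa4 and its paralogue Ndufa4l2 were counted with complex IV, where the Ndufa4 protein is now placed despite its name. Ndufs6, Ndufa11 and Cox7b had no probe set under a single symbol and are not analysed here as single genes.

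Total RNA came from unstimulated L929 cells, a line from mouse connective tissue, and from unstimulated NIH3T3 cells, a line from mouse embryos, with 2 Affymetrix expression arrays per line. The submitters took L929 as a line that dies by necrosis and NIH3T3 as a line that dies by apoptosis, and 1 line stands for each. The labels do not say whether replicates were separate cultures, so p-values reflect the scatter among these arrays alone, and that scatter may be technical. All 9 fibroblast markers, among them Col1a1, Col1a2 and Vim, lay above the level used as a filter on all 4 arrays. The leukocyte marker Ptprc and the endothelial markers Pecam1 and Tek lay below it on all 4. The endothelial markers Kdr and Cdh5 lay above it on 3 and 2 of the arrays, at up to 38.2 and 29.5, and their part in the results was not tested. The macrophage marker Cd68 and the epithelial markers Epcam and Krt8 lay above it on all 4, at 27.6 to 81.0, and their part in the results was not tested.

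The respiratory chain passes electrons from NADH, through complex I, and from succinate, through complex II, to ubiquinone, then through complex III and cytochrome c to complex IV, which reduces oxygen. Complexes I, III and IV pump protons across the inner mitochondrial membrane, and complex V, the ATP synthase, uses their return to make ATP. Complexes I, III, IV and V also hold subunits encoded in mitochondrial DNA, which the choice of genes does not cover. Signals were computed by MAS5 and have no physical unit, each array was brought to the same trimmed mean, and the values of 2 different probe sets are not on a shared scale.

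Most of these genes gave strong signals, and the second NIH3T3 array gave lower values than the first for strong signals. Of the 88 genes that could be tested, 66 lay among the 10% of tested genes with the highest mean signal. Over all 1268 genes there the median log2 difference of NIH3T3 replicate 2 against replicate 1 was -0.13, against -0.02 between the L929 arrays, and in the other signal classes of equal size it lay between -0.01 and 0.06. Among the 66 members there, NIH3T3 replicate 2 lay below replicate 1 for 55, as it did for 75% of all genes there. The median ratio of NIH3T3 replicate 2 to replicate 1 was 0.954 for complex I, 1.02 for complex II, 0.867 for complex III, 0.89 for complex IV and 0.848 for complex V. It was 0.79 for the 10 ubiquitous subunits of complex IV. A low second NIH3T3 array raises the difference of L929 over NIH3T3, so counts, medians and the calls it decides are given with and without it.

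**Figure D1:**
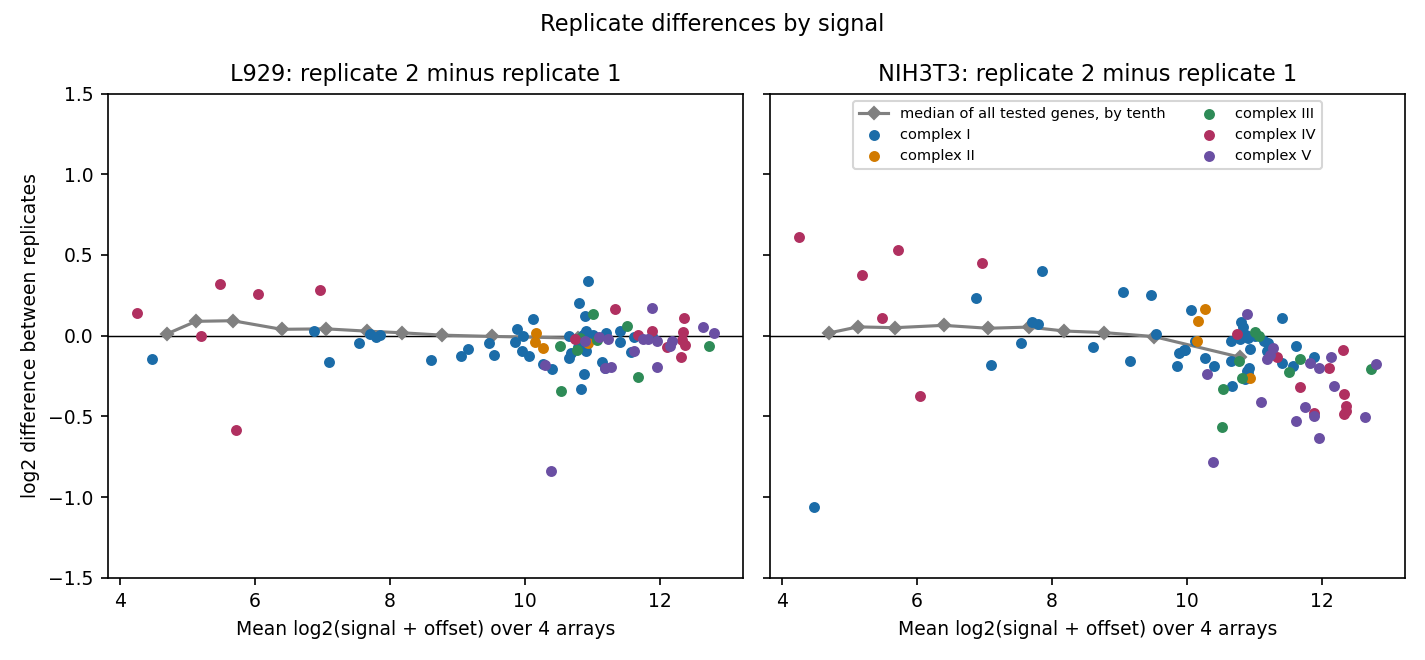
Log2 difference between the replicates of each line (y axis) against the mean log2 signal over 4 arrays (x axis), for the tested genes of each complex (points) and as the median of all tested genes in each of 10 signal classes of equal size (grey diamonds). The NIH3T3 points fall below 0 at strong signals, with a grey median of -0.13 in the top 10%, and the L929 points stay near 0.

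Where genes of the respiratory chain differed, nearly all lay higher in L929, mostly by less than 2-fold, but the share of higher genes rested in part on the second NIH3T3 array. Of 88 tested genes 24 were called higher (27.3%) and 1 lower (1.14%), where a call needs an adjusted p under 0.05 and a fold over 1.5. In bulk RNA, fewer cells that express a gene and less of its RNA per cell cannot be told apart. The background over all 12676 tested genes was 34.8% called, 17.3% as higher and 17.6% as lower. In the top 10% by signal those shares were 16.9% and 8.99%, and of the 66 members there 14 (21.2%) were higher and 0 lower by limma. Without NIH3T3 replicate 2, 9 of those 66 (13.6%) were higher and 0 lower, against 15.5% and 11.2% of all genes there, so their share went from above the background to below it. At an unadjusted p under 0.05 by limma, with all 4 arrays and no limit on the fold, 33 of those 66 lay higher and 3 lower. The share of all genes at that looser limit is not given here. This count, and the later ones at an unadjusted p, therefore cannot be read as an excess. Both L929 arrays lay above both NIH3T3 arrays for 61 of the 88 and below them for 10, against 37.6% and 36.2% of all genes, and 71 differences were above 0, against 50.8% of all genes. Of the 66 in the top 10%, 47 had both L929 arrays above, against 44.6% of all genes there. The median log2 difference of the 88 was 0.31, against 0.01 for all genes tested and 0.11 for the top 10%. Without NIH3T3 replicate 2, 19 of the 88 were higher, all of them among the 24, and 1 other was lower, against 16.5% and 14.6% of all genes, and the median was 0.21. The 88 include 8 assembly factors, which are not part of the finished complex, and 5 isoforms of complex IV, and these hold 8 of the 24 higher genes. The other 74 tested genes that encode subunits, with Cox7a2l also left out, had 16 higher (21.6%), and 11 (14.9%) without NIH3T3 replicate 2. The median of all genes in the top 10% was then 0.01. Quantile normalization called 20 of the 88 higher and 0 lower, where all genes had 18.3% and 16.8%. Cyclic loess called 19 higher and 0 lower, where all genes had 17.4% and 17.9%. Without scaling 5 were higher and 1 lower, where all genes had 6.31% and 13.9% and their median shifted to -0.26.

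The complexes are set side by side by the median difference of their genes, which was above 0 in each with all 4 arrays scaled. The median log2 difference was 0.38 in complex I, 0.49 in complex II, 0.60 in complex III, 0.24 in complex IV and 0.18 in complex V. Without NIH3T3 replicate 2 those medians were 0.30, 0.46, 0.33, 0.065 and 0.053. The medians of complexes IV and V thus lay close to 0 without that array, and the median of complex III lay near that of complex I. Without scaling the medians of complexes IV and V were -0.026 and -0.11, below 0 but above the median of all genes. Counts of higher genes were 11 of 42 (26.2%), 2 of 4 (50%), 5 of 9 (55.6%), 3 of 16 (18.8%) and 3 of 17 (17.6%), against 17.3% of all genes. Without NIH3T3 replicate 2 they were 10, 2, 2, 3 and 2 (23.8%, 50%, 22.2%, 18.8% and 11.8%), against 16.5% of all genes. The shares of complexes IV and V thus lay near that of all genes, and that of complex V lay below it without that array. Without scaling complexes II and III had 0 higher genes, and complex II had 0 with the mean of probe sets per gene. Differences between complexes were not tested. The other 3 of the 91 genes, Cox6b2, Cox7b2 and Cox8b, lay too low to be tested.

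**Figure D2:**
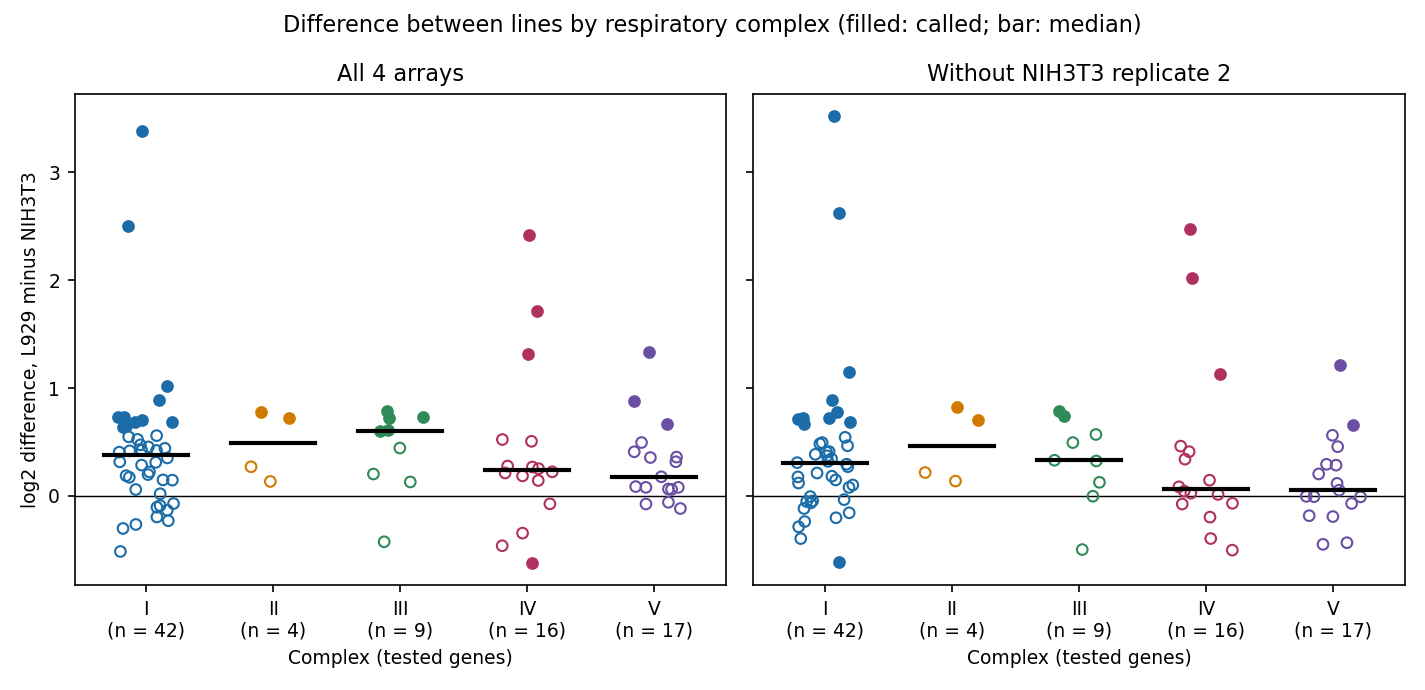
Log2 difference between L929 and NIH3T3 (y axis) for each tested gene, by complex (x axis), with all 4 arrays on the left and without NIH3T3 replicate 2 on the right. Filled points were called, open points were not, and bars are medians, which fall from 0.24 to 0.065 in complex IV and from 0.18 to 0.053 in complex V.

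Promoters of the members were looked up because nuclear respiratory genes are known for sites of the transcription factors NRF1 and GABP near their starts. A RefSeq promoter (GRCm38.p6) was found for 74 of the 91 genes, and 250 bases before the first listed start were searched on both strands. An NRF1-type motif (GCGCA, then any base, then GCGC) was found in 11 of 74 member promoters (14.9%), in 3.86% of all 27025 promoters and in 8.08% of the promoters of genes tested here. It was in 5 of 19 called members and 6 of 52 uncalled members. The GABP-type core CCGGAAG was in 17.6% of member promoters, 7.05% of all promoters and 13.4% of those of tested genes, with 5 of 19 called and 8 of 52 uncalled members. CCAAT was in 43.2% of member promoters, 34.5% of all promoters and 36.5% of those of tested genes. TATAAA was in 9.46%, 13% and 6.83%. A match is a description of the letters and not a sign that a factor binds.

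The 5 called genes with an NRF1-type motif are shown, and they come from complexes I, II and V. They were picked for that motif and do not stand for the other called genes. Among those not shown, Uqcrfs1 had none of the 4 motifs, Cox7a1 had CCAAT alone, and Atp5e had a GABP-type core and CCAAT. Capitals mark every match to the 4 motifs, some of which lie on the reverse strand. The windows are chr4:123718187-123718436, minus strand for Ndufs5, chr4:24897833-24898082, plus strand for Ndufaf4, chr13:74350241-74350490, minus strand for Sdha, chr9:50603850-50604099, minus strand for Sdhd and chr15:102671048-102671297, minus strand for Atp5g2, each written 5′ to 3′ on the gene's strand and ending at the base before the start.
Ndufs5: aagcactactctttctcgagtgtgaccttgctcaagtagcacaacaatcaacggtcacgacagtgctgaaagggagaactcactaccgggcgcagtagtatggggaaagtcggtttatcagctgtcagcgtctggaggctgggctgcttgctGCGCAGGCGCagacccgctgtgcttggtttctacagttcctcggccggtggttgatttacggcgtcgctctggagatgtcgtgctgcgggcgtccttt
Ndufaf4: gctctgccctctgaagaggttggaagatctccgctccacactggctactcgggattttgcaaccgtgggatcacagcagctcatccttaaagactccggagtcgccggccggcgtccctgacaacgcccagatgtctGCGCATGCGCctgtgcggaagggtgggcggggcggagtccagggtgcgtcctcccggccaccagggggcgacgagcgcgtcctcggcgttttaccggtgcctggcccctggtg
Sdha: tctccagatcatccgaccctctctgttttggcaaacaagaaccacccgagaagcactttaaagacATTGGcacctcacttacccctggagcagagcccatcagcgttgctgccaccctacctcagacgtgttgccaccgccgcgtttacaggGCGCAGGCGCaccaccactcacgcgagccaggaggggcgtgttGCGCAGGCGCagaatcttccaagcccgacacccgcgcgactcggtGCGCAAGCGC
Sdhd: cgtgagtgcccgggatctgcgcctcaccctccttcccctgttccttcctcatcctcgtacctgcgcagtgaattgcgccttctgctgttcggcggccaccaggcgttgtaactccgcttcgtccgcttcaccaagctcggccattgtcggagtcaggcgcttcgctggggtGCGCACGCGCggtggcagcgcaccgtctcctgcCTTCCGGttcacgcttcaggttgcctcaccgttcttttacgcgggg
Atp5g2: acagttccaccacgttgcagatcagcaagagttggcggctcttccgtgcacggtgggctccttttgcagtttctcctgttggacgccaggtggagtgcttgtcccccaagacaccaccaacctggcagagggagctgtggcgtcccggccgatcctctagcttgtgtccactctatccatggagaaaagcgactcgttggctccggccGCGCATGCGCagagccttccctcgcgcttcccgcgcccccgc
Sdha has 3 matches to the NRF1-type motif, the nearest directly before the start, and a CCAAT on the reverse strand. In Ndufaf4 and Atp5g2 the match is GCGCATGCGC, which reads the same on both strands, while the matches in the other genes shown do not. Sdhd also has a GABP-type core, 46 to 40 bases before the start on the reverse strand.

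In complex I, the entry point for NADH, the core subunits, most of which carry the flavin or iron-sulfur clusters, were not called by the probe set with the strongest signal. Several accessory subunits and assembly factors were higher in L929. Of 6 core subunits with a probe set of their own limma called 0, and at an unadjusted p under 0.05 there were 3 higher and 0 lower. Ndufs3, a core subunit of the arm that leads to ubiquinone, measured 1296 and 1395 in L929 and 920.1 and 899.8 in NIH3T3 (adjusted p = 0.0019, log2 difference 0.56), so that the lines did not overlap but the fold of 1.47 lay under the limit. It was called under median scaling and without L929 replicate 1. Ndufs7, which carries the last iron-sulfur cluster before ubiquinone, measured 1513 and 1342 in L929 and 1099.6 and 998 in NIH3T3 (log2 difference 0.44). A second Ndufs7 probe set, at 1493 and 1510.2 in L929 and 969 and 835 in NIH3T3, was called higher (log2 difference 0.73, adjusted p = 0.0014), and the gene was called with the mean of probe sets. Ndufv2, a subunit of the NADH-oxidising tip, measured 3166 and 3083 in L929 and 2500.3 and 2219.9 in NIH3T3 (log2 difference 0.41). All 3 lay higher on both L929 arrays than on either NIH3T3 array.

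The other core subunits overlapped between the lines. Ndufs1, the largest subunit of the matrix arm, measured 930.0 and 955 in L929 and 965 and 895 in NIH3T3, Ndufv1, which binds NADH, measured 1610.5 and 1854 in L929 and 1785 and 1895 in NIH3T3, and Ndufs8, another iron-sulfur subunit, measured 2435 and 2115 in L929 and 2461 and 2309 in NIH3T3. Their log2 differences were 0.02, -0.09 and -0.07. The sign for Ndufv1 was not settled between its probe sets, which ranged from -0.09 to 0.58.

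Of 28 accessory subunits of complex I limma called 6 higher in L929 (21.4%, against 17.3% of all genes) and 0 lower. Without NIH3T3 replicate 2 there were 5 higher (17.9%, against 16.5% of all genes) and 1 lower. At an unadjusted p under 0.05, with all 4 arrays, there were 16 higher and 2 lower. Ndufs5, a subunit on the outer face of the membrane arm, measured 1781 and 1631 in L929 and 141 and 172 in NIH3T3, 10.5-fold higher in L929 (log2 difference 3.39 ± 0.12 SE, adjusted p = 3.2e-07). That value rests on 1 probe set. A second probe set, annotated to Ndufs5 and a pseudogene together and so assigned to neither, measured 1334 and 1228 in L929 and 1394 and 1454 in NIH3T3 (log2 difference -0.15, adjusted p = 0.32). The pair disagreed by more than the spread between replicates, and what sets them apart was not tested. The 10.5-fold value is the largest among the 88 genes.

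Ndufs4, which helps to hold the NADH-oxidising tip on the complex, measured 1043 and 959.8 in L929 and 537 and 539.7 in NIH3T3, 1.85-fold higher (adjusted p = 1.3e-04). Ndufa7, a matrix-arm subunit, measured 3069 and 2741 in L929 and 1760.5 and 1720.1 in NIH3T3, 1.66-fold higher (adjusted p = 0.0012). In both, the lines stood far apart against the gap between replicates, and the difference without NIH3T3 replicate 2 was nearly the same (0.89 and 0.72, against 0.89 and 0.73).

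The membrane-arm subunits Ndufb6, Ndufb7 and Ndufb2 were also higher. Ndufb6 measured 2583 and 2187 in L929 and 1477 and 1480.4 in NIH3T3 (1.60-fold, adjusted p = 0.002). Ndufb7 measured 2115 and 1966 in L929 and 1445 and 1164 in NIH3T3 (1.57-fold, adjusted p = 0.0038). Ndufb2 measured 1392 and 1275 in L929 and 804 and 898 in NIH3T3 (1.56-fold, adjusted p = 0.0014). The L929 arrays lay above the NIH3T3 arrays for each, but the call of Ndufb7 was lost without NIH3T3 replicate 2 (log2 difference 0.49), those of Ndufb6 and Ndufb2 were lost without L929 replicate 1, and that of Ndufb2 also without NIH3T3 replicate 1. Cyclic loess removed the calls of Ndufb7 and Ndufb2, quantile normalization that of Ndufb7, and the mean of probe sets that of Ndufb6.

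The remaining 22 accessory subunits ran from -0.51 to 0.55 on the log2 scale of differences. At the upper end, Ndufa1, a small membrane-arm subunit encoded on the X chromosome, measured 4578 and 4577 in L929 and 3274 and 2991 in NIH3T3, a fold of 1.46 (log2 difference 0.55, adjusted p = 0.011). At the lower end, Ndufv3, the smallest subunit of the NADH-oxidising tip, measured 774 and 752 in L929 and 1168 and 1025 in NIH3T3 (log2 difference -0.51, adjusted p = 0.0038). Ndufv3 lay lower on both L929 arrays, and it was called lower without NIH3T3 replicate 2 (-0.61). The probe set of Ndufb4 was near background, at 20.0 and 17.4 in L929 and 18.8 and 4.85 in NIH3T3, and gives no view of that gene.

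None of the other 19 accessory subunits was called. Ndufab1, the mitochondrial acyl carrier protein, and Ndufa5, Ndufa6, Ndufa8 and Ndufa12 differed by 0.42 to 0.47. Ndufb3, Ndufb5, Ndufb8, Ndufb9, Ndufb11, Ndufc1, Ndufc2, Ndufa3, Ndufa9 and Ndufa13 differed by 0.06 to 0.35. Ndufa2, Ndufa10, Ndufb1 and Ndufb10 lay on the other side, at -0.30 to -0.10. Most of the 19 thus lay slightly higher in L929, by less than the limit of the call.

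Assembly factors are proteins that help to build complex I and are not part of it. Of 8 with a tested probe set limma called 5 higher in L929 (62.5%, against 17.3% of all genes) and 0 lower. Counts were the same at an unadjusted p under 0.05, and all 5 were also called without NIH3T3 replicate 2. None of the 8 lay in the top 10% by signal. Ndufaf3 measured 267 and 273 in L929 and 37.2 and 45.2 in NIH3T3, 5.66-fold higher (adjusted p = 1.3e-05). Its partner in early assembly, Ndufaf4, measured 1013 and 979 in L929 and 445 and 532 in NIH3T3, 2.03-fold higher (adjusted p = 1.4e-04), and a second Ndufaf4 probe set gave a log2 difference of 1.55. The L929 arrays lay well above the NIH3T3 arrays for both genes.

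Differences were smaller for 3 further factors. Ndufaf6 measured 261 and 263 in L929 and 149.6 and 159 in NIH3T3 (1.66-fold, adjusted p = 0.0017). Ndufaf2, a chaperone of late assembly, measured 516 and 464 in L929 and 305 and 291 in NIH3T3 (1.62-fold, adjusted p = 8.6e-04). Ndufaf1, which acts on the membrane arm, measured 274 and 272 in L929 and 163 and 172 in NIH3T3 (1.60-fold, adjusted p = 0.0021). None of these 3 overlapped between the lines. Ndufaf8, the hydroxylase Ndufaf5 and the methyltransferase Ndufaf7 were not called, with log2 differences of 0.20, -0.19 and -0.26.

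**Figure D3:**
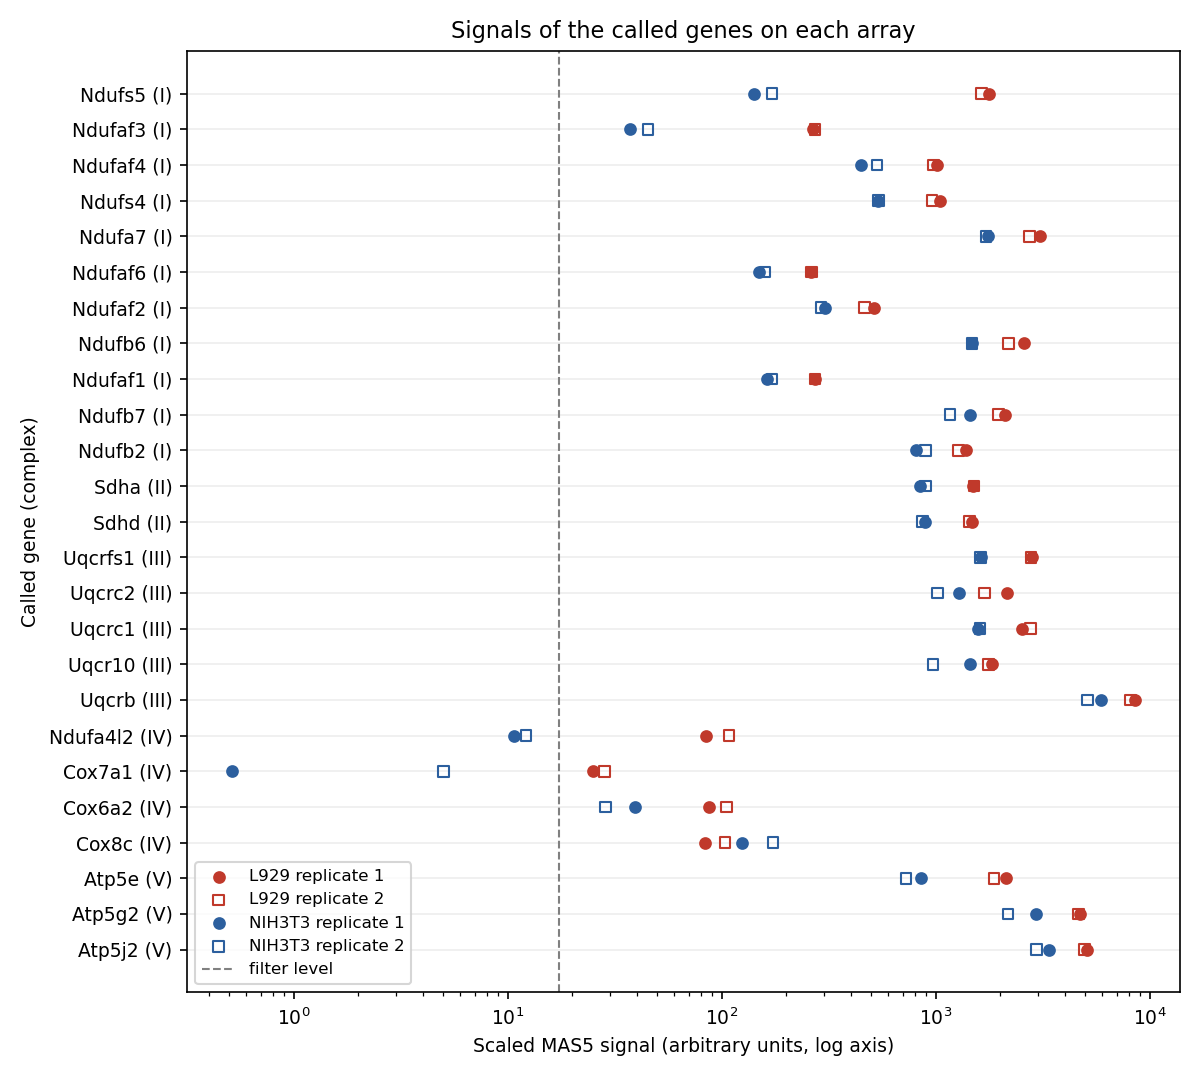
Scaled MAS5 signal on each of the 4 arrays (x axis, log scale) for the 25 called genes, ordered by complex (y axis); red is L929, blue is NIH3T3, and the dashed line is the filter level. The red symbols lie to the right of the blue ones for 24 genes and to the left for Cox8c.

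Complex II, succinate dehydrogenase, which is also an enzyme of the citric acid cycle, has 4 subunits, all encoded in the nucleus. The flavin subunit Sdha measured 1489 and 1509 in L929 and 842 and 896 in NIH3T3, 1.72-fold higher in L929 (adjusted p = 2.9e-04). The membrane anchor Sdhd measured 1477 and 1434 in L929 and 892 and 870.0 in NIH3T3, 1.65-fold higher (adjusted p = 4.1e-04). For both, the gap between lines was many times the gap between replicates, and both were called without NIH3T3 replicate 2. Weaker probe sets of the same genes gave smaller differences: 0.40 for a second Sdha probe set and 0.15 for a second Sdhd probe set, against 0.78 and 0.72. With the mean over probe sets neither gene was called.

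The other subunits were not called, although both L929 arrays lay above both NIH3T3 arrays. The iron-sulfur subunit Sdhb measured 2179 and 2114 in L929 and 1949.8 and 1621 in NIH3T3 (log2 difference 0.27, adjusted p = 0.11). The second anchor, Sdhc, measured 1315 and 1246 in L929 and 1100.3 and 1235 in NIH3T3 (log2 difference 0.13, adjusted p = 0.33), and its probe sets differed in sign, from -0.18 to 0.13.

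In complex III, which passes electrons from ubiquinol to cytochrome c, 5 of 9 genes were called higher in L929 by limma and 0 lower, against 6 and 1 at an unadjusted p under 0.05. The Rieske iron-sulfur protein, Uqcrfs1, measured 2833 and 2783 in L929 and 1622 and 1623 in NIH3T3, 1.73-fold higher (adjusted p = 5.2e-04). Uqcrc1, a large structural subunit on the matrix side, measured 2525 and 2773 in L929 and 1583 and 1609 in NIH3T3, 1.65-fold higher (adjusted p = 9.8e-04). The NIH3T3 replicates of both were nearly equal, and both calls held without NIH3T3 replicate 2.

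The other 3 calls of complex III depended on that array. Uqcrc2, the partner of Uqcrc1, measured 2151 and 1693 in L929 and 1283 and 1021 in NIH3T3 (1.66-fold, adjusted p = 0.0048), and its log2 difference went from 0.73 to 0.57 without the array. Uqcr10, a small subunit, measured 1842 and 1764 in L929 and 1438 and 969.9 in NIH3T3 (1.52-fold, adjusted p = 0.019), and went from 0.61 to 0.32. Uqcrb, a subunit at the ubiquinone pocket, measured 8504 and 8149.7 in L929 and 5907 and 5122 in NIH3T3 (1.51-fold, adjusted p = 0.026), and went from 0.60 to 0.49. None of these 3 was called without it. The call of Uqcrc2 was also lost without L929 replicate 1, and those of Uqcr10 and Uqcrb without either L929 array. Quantile normalization and cyclic loess also removed the calls of Uqcr10 and Uqcrb, and median scaling that of Uqcrb.

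Uqcr10 was not measured alike by its 3 probe sets. The strongest gave the values above, a second gave 539 and 425 in L929 and 70.5 and 106 in NIH3T3 (log2 difference 2.36), and the third gave 395 and 376 in L929 and 23.6 and 11.3 in NIH3T3 (log2 difference 3.99, adjusted p = 7.6e-06). All 3 were called higher, with differences from 0.61 to 3.99.

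Cytochrome c1, Cyc1, which hands electrons to cytochrome c, measured 3344 and 3483 in L929 and 2712 and 2318 in NIH3T3 (log2 difference 0.44, adjusted p = 0.025) and was not called. Uqcrq and Uqcr11, both small accessory subunits, differed by 0.20 and 0.13. Uqcrh, the acidic hinge protein that binds cytochrome c1, ran the other way, at 3070.3 and 2572 in L929 and 3969 and 3589.5 in NIH3T3 (log2 difference -0.42, adjusted p = 0.041). Both of its probe sets lay lower in L929, and the weaker of them, at 1596 and 1310.5 in L929 and 2736 and 2822 in NIH3T3, was called lower (log2 difference -0.94, adjusted p = 9.1e-04).

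In complex IV, cytochrome c oxidase, limma called none of the 10 tested ubiquitous subunits, and the calls fell on isoforms with weak signals. At an unadjusted p under 0.05, 2 of the 10 lay higher and 1 lower. Cox5a measured 6353 and 5794 in L929 and 4405 and 4138 in NIH3T3 (log2 difference 0.51, adjusted p = 0.028), and Cox6c measured 6128 and 6238 in L929 and 4881 and 3791 in NIH3T3 (log2 difference 0.52, adjusted p = 0.04). These subunits surround the catalytic core, and both genes lay higher on both L929 arrays at a fold under the limit. Without NIH3T3 replicate 2 their differences were 0.46 and 0.34.

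Several strongly measured subunits lay near the L929 values on the first NIH3T3 array and lower on the second. Cox4i1, the subunit at which ATP is thought to slow the enzyme, measured 5914 and 5674 in L929 and 5616 and 4068 in NIH3T3. Cox6b1, which faces the space between the membranes, measured 5704 and 5607 in L929 and 5557 and 3966 in NIH3T3. Cox5b, which binds zinc, measured 4095 and 4170.2 in L929 and 4093 and 2935 in NIH3T3. Their log2 differences of 0.28, 0.27 and 0.25 became 0.04, 0.03 and 0.01 without the second NIH3T3 array.

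Cox6a1 measured 5301 and 5713 in L929 and 5798 and 4281 in NIH3T3 and overlapped between the lines (log2 difference 0.14). Cox7a2 measured 4822 and 4594 in L929 and 4439 and 3857 in NIH3T3 (log2 difference 0.19), and Cox8a measured 2615 and 2932 in L929 and 2502 and 2279.7 in NIH3T3 (log2 difference 0.21). Ndufa4 measured 2883 and 2889 in L929 and 4091 and 3286 in NIH3T3, lower on both L929 arrays (log2 difference -0.34, adjusted p = 0.089). Cox7a2l, which joins complexes III and IV into supercomplexes, measured 1667 and 1645 in L929 and 1737 and 1749 in NIH3T3 (log2 difference -0.07). The Cox7c probe set was weak and uneven, at 47.0 and 28.7 in L929 and 43.5 and 66.3 in NIH3T3, and gives no settled view of that gene.

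Isoforms of complex IV subunits replace the ubiquitous forms in some tissues or conditions. Ndufa4l2, a paralogue of Ndufa4 known to respond to low oxygen, measured 84.7 and 108 in L929 and 10.7 and 12.1 in NIH3T3, at least 5.54-fold higher in L929 (adjusted p = 1.5e-04). The bound is the mean L929 log2 signal over the filter level of 17.3, since both NIH3T3 arrays lay below that level. Cox7a1, a form of heart and skeletal muscle, measured 24.9 and 28.3 in L929 and 0.514 and 5.02 in NIH3T3, at least 1.54-fold higher. Ndufa4l2 and Cox7a1 entered the test through L929 alone, the line where they were high, so their calls were favoured by the filter. Cox7a1 had no value under a stricter filter or one that used the mean signal of the gene, and complex IV had 2 higher genes under each. Cox6a2, likewise a muscle form, measured 87.0 and 106 in L929 and 39.4 and 28.6 in NIH3T3, 2.49-fold higher (adjusted p = 0.0028). All 3 were called without NIH3T3 replicate 2, and all 3 remained weak signals in both lines.

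Of the muscle markers, Des lay higher in L929, at 118 and 174 against 8.92 and 49.2, and its part in the values of Cox7a1 and Cox6a2 was not tested. Ckm, at 9.62 and 32.2 in L929 and 47.3 and 12.7 in NIH3T3, Myod1, at 19.2 and 34.3 in L929 and 7.05 and 16.5 in NIH3T3, and Myog, at 10.7 and 3.05 in L929 and 10.6 and 2.71 in NIH3T3, gave weak signals. The sum over the 4, to which Des gave most in L929, was 158 to 244 on the L929 arrays and 73.8 to 81.2 on the NIH3T3 arrays. None of these 4 lay above the filter level on all arrays, and the defining factor Myog lay below it on all of them.

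Cox8c, a testis form, measured 83.4 and 103 in L929 and 125 and 174 in NIH3T3 and was the only gene of the 88 called lower in L929 (1.54-fold, adjusted p = 0.039). The call was lost in 9 of 16 alternatives, among them without NIH3T3 replicate 2 or L929 replicate 1. Cox4i2, a form of lung tied to low oxygen, measured 31.5 and 31.5 in L929 and 21.7 and 30.5 in NIH3T3 (log2 difference 0.22). Cox6b2 measured 1.98 and 3.56 in L929 and 2.20 and 22.7 in NIH3T3, Cox7b2 measured 5.27 and 2.44 in L929 and 0.688 and 8.45 in NIH3T3 and Cox8b measured 2.04 and 1.53 in L929 and 13.3 and 1.44 in NIH3T3. These 3, forms of testis or muscle, were below the filter level on at least 1 array of each line.

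In complex V the catalytic head overlapped between the lines, except for its smallest subunit. Atp5b, the catalytic beta subunit, measured 7275 and 7372 in L929 and 7358 and 6528 in NIH3T3 (log2 difference 0.08), and Atp5a1, the alpha subunit, measured 4798 and 4698 in L929 and 4983 and 4011 in NIH3T3 (log2 difference 0.09). The central stalk subunits Atp5c1 and Atp5d differed by 0.08 and 0.06. These 4 genes overlapped between the lines. Atp5e, the epsilon subunit of the same stalk, measured 2127 and 1873 in L929 and 857 and 726 in NIH3T3, 2.52-fold higher in L929 (log2 difference 1.33 ± 0.12 SE, adjusted p = 5.2e-05). It was called in all 16 alternatives, with differences from 1.05 to 1.45. It has 1 probe set, so the mean of probe sets per gene could not change its difference.

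The c ring, which turns as protons pass, is built from 1 mature protein that 3 genes encode. Atp5g2 measured 4710.3 and 4639.5 in L929 and 2952 and 2173 in NIH3T3, 1.84-fold higher in L929 (adjusted p = 0.0031). Atp5g1 measured 2532 and 2516 in L929 and 2191 and 1646 in NIH3T3 (log2 difference 0.41, adjusted p = 0.053), and Atp5g3 measured 6389 and 6629 in L929 and 7431 and 5237 in NIH3T3 (log2 difference 0.06, adjusted p = 0.83). For all 3 the second NIH3T3 array was low, at 0.736, 0.751 and 0.705 times the first. Without it the differences were 0.66, 0.20 and -0.19, and Atp5g2 was still called. A second, weak Atp5g2 probe set gave -0.34, and with the mean over probe sets the gene was not called.

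Subunits of the outer stalk and the membrane part were mostly uncalled. Atp5j2, the f subunit, measured 5069 and 4952 in L929 and 3391 and 2948 in NIH3T3, 1.58-fold higher (adjusted p = 0.0061). Its call was lost in 7 of 16 alternatives. Among them were leaving out NIH3T3 replicate 2 (0.56) or either L929 array, quantile normalization, cyclic loess and the mean of probe sets. Atp5o, which couples the stalk to the head, measured 3131 and 2733 in L929 and 2129 and 2019 in NIH3T3, a fold of 1.41 (log2 difference 0.49, adjusted p = 0.012). A second Atp5o probe set, at 1702 and 1206 in L929 and 660.5 and 830.4 in NIH3T3, was called higher (log2 difference 0.94, adjusted p = 0.0035), and the gene was called with the mean of probe sets. The other stalk subunits Atp5pb, Atp5j and Atp5h differed by 0.36, 0.36 and -0.12. Atp5h had the largest gap between NIH3T3 arrays among these, at 4075 and 3554 in L929 and 5142 and 3313 in NIH3T3. The small membrane subunits Atp5k, Atp5l and Atp5mpl differed by 0.32, 0.18 and -0.07, and Atp5k differed by 0.05 without NIH3T3 replicate 2. Atp5md, which helps to pair the enzyme into dimers, varied within both lines, at 1739.9 and 969 in L929 and 1775 and 1031 in NIH3T3.

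Probe sets of the same gene did not always give the same size of difference. Of 166 tested probe sets of these genes 40 were called higher (24.1%) and 3 lower (1.81%), where 14.9% and 16.7% of all 27438 tested probe sets were. Of 47 genes with several tested probe sets 35 had the same sign in all of them, and 0 had calls in both directions. Among the 25 called genes 12 rested on 1 tested probe set. Of the other 13, all probe sets were called the same way in 5, and at least 1 was not called in 8. A further 6 uncalled genes had a called probe set among their weaker ones.

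**Figure D4:**
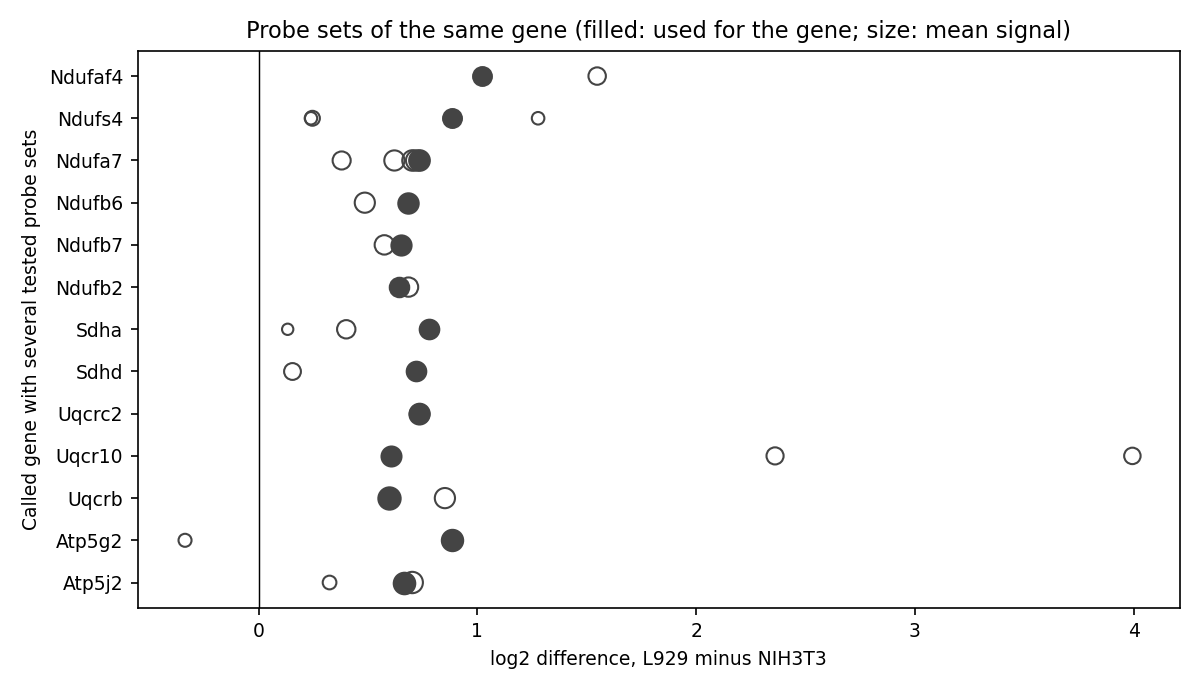
Log2 difference between L929 and NIH3T3 (x axis) of each tested probe set of the 13 called genes with several (y axis); the filled circle is the probe set used for the gene, and circle size grows with mean signal. The probe sets of Uqcr10 spread from 0.61 to 3.99, and those of Ndufb7 lie close together.

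Other genes of mitochondrial energy supply were counted by the same rule, where 17.3% of all tested genes were higher and 17.6% lower. By limma, 9 of 21 regulators of mitochondrial gene expression (42.9%) were higher in L929 and 0 lower, with and without NIH3T3 replicate 2. At an unadjusted p under 0.05 the counts were 13 and 3. The list had a median of 0.46 (0.38 without that array). Of the uncalled regulators, Nrf1 and Gabpb1 had log2 differences of 0.46 and 0.52, Gabpa of 7.6e-04, and Tfam and Polrmt of -0.27 each. The transcription termination factor Mterf1a measured 295 and 283 in L929 and 48.5 and 44.7 in NIH3T3 (5.44-fold, adjusted p = 9.0e-06). Its relative Mterf2 measured 95.1 and 108 in L929 and 31.3 and 32.3 in NIH3T3 (2.75-fold, adjusted p = 9.5e-04). Tfb2m, which starts transcription of mitochondrial DNA, measured 484 and 482 in L929 and 188 and 204 in NIH3T3 (2.41-fold, adjusted p = 3.5e-05). None of these 3 overlapped between the lines.

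Mitochondrial ribosomal proteins, which serve to translate the subunits encoded in mitochondrial DNA, were higher for 14 of 76 and lower for 2, with a median of 0.33 (0.25 without NIH3T3 replicate 2). The share of higher genes, 18.4%, was near that of all genes. Mrpl24, Mrpl23 and Mrpl42 were 3.45-fold, 2.58-fold and 2.51-fold higher, while Mrpl35 and Mrps34 were 1.72-fold and 1.71-fold lower.

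Further assembly factors, outside the Ndufaf family, were higher for 9 of 37 (24.3%) and lower for 2 (5.41%), with a median of -0.03. The complex IV factor Cox16 was 2.35-fold higher, and the complex I factors Ecsit and Foxred1 were 2.04-fold and 1.95-fold higher. Sdhaf4, which helps to mature Sdha, measured 161 and 179 in L929 and 491 and 437 in NIH3T3, 2.65-fold lower in L929 (adjusted p = 3.6e-05), the opposite direction to Sdha. Lrpprc, which stabilises mitochondrial messenger RNA, was 1.51-fold lower, a call lost without NIH3T3 replicate 2.

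Mobile carriers and the other entry points to the chain went both ways, with 6 of 20 higher (30%) and 5 lower (25%). Prodh, which feeds electrons from proline, measured 66.4 and 69.2 in L929 and 2.56 and 2.07 in NIH3T3, at least 3.93-fold higher in L929 (adjusted p = 9.0e-05). It entered the test through L929 alone, the line where it was high, so its call was favoured by the filter. Etfb, a subunit of the carrier that takes electrons from fatty acid oxidation, was 2.02-fold higher, and Coq9, needed to make ubiquinone, was 1.85-fold higher. Sqor, which feeds electrons from sulfide, measured 151 and 150.4 in L929 and 728 and 818 in NIH3T3, 4.92-fold lower in L929 (adjusted p = 1.4e-06). Pdss2, which makes the tail of ubiquinone, and Gpd2, the mitochondrial glycerol phosphate dehydrogenase, were 2.15-fold and 2.06-fold lower.

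By limma at an unadjusted p under 0.05, 4 of 24 genes of pyruvate dehydrogenase and the citric acid cycle lay higher in L929 and 8 lower. The median was -0.15. At the limits of a call 0 were higher and 2 lower (8.33%). The 2 were the pyruvate dehydrogenase kinases Pdk1, at 92.3 and 87.5 in L929 and 251 and 379 in NIH3T3 (3.24-fold, adjusted p = 2.1e-04), and Pdk4, at 34.8 and 22.4 in L929 and 88.8 and 101 in NIH3T3 (2.85-fold, adjusted p = 0.0018). These kinases switch the enzyme off. In a mixed list of mitochondrial carriers, nucleotide kinases and outer membrane channels limma called 0 of 12 higher and 3 lower (25%). Counts were the same at an unadjusted p under 0.05. The 3 were the adenylate kinase Ak3, the citrate carrier Slc25a1 and the oxoglutarate carrier Slc25a11, at 2.38-fold, 2.04-fold and 1.81-fold lower. None of them carries ATP, ADP or phosphate across the inner membrane. The ADP/ATP carriers Slc25a4 and Slc25a5 and the phosphate carrier Slc25a3 were not called, with log2 differences of -0.15, 0.02 and 0.02, nor were the channels Vdac1, Vdac2 and Vdac3, at 0.12, 0.23 and 0.07. Differences between these lists and the respiratory genes were not tested.

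**Figure D5:**
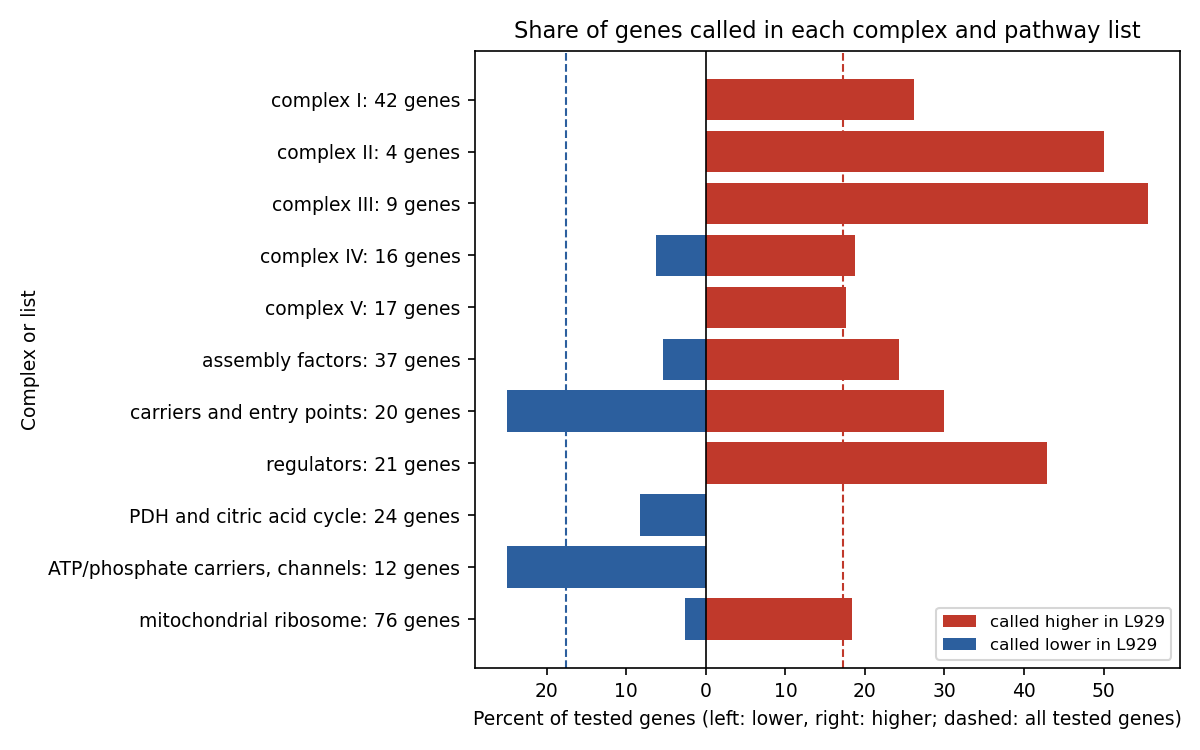
Percent of tested genes called higher (right, red) and lower (left, blue) in L929 for the 5 complexes and 6 pathway lists (y axis), with the shares over all tested genes as dashed lines at 17.3% and 17.6%. With all 4 arrays, complexes II and III and the regulators pass the dashed line for higher genes by the widest margin, but complexes II and III hold 4 and 9 genes, and without NIH3T3 replicate 2 complex III has 2 higher genes.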

How the data were processed

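Each value is the signal intensity of 1 probe set on 1 Affymetrix array, made with MAS5 per the submitters' processing notes and deposited on a linear scale. Which version and scaling target were used, and any genome build, is not given in the sources used here. Arrays were scaled to a common mean that leaves out 2% of the probe sets at each end (factors 1.07, 1.14, 1.13 and 0.726). An offset of 8.01, the 25th percentile, was added before log2 was taken, so folds understate the change of weak genes. A probe set was tested where 1 line had both of its arrays above 17.3, the 40th percentile of signals. One value per gene came from its tested probe set with the highest mean, which gave 12676 genes. The fit was limma 3.58.1 in R 4.3.3 (lmFit and eBayes with a trend), with Benjamini-Hochberg adjustment over all genes, or over all 27438 probe sets for values of single probe sets. Calls used the submitters' thresholds, an adjusted p under 0.05 and a fold over 1.5. The number of arrays limits the precision.

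All members may be named; values on every array are given for called genes, core subunits, isoforms and the strongest or most different genes of a complex, and from each pathway list at most 3 called genes per direction. The members and lists were chosen with earlier results of these data known. On simulated arrays with changes of known size the procedure called 28% of 1.5-fold, 66% of 2-fold and 98% of 4-fold changes. It also called 33 of 25984 unchanged probe sets, beside 200 changed ones, so some calls there were false. The 1.5-fold changes lay at the limit of the call, and many small changes can thus be missed. The simulation changed 200 of 26184 tested probe sets, all above the median signal, while 34.8% of the genes were called in the data. Its shares therefore need not hold for the genes reported here. A gene that was not called is not shown to be equal in both lines. Of 45037 probe sets, 34945 had 1 symbol, 932 several and 9160 none. Alternatives covered scaling, offset, filter, trend, the value per gene, a replicate block and leaving out each array.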

Additional observations from a re-analysis of the deposited data

How the results depend on the processing

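Of the 25 called genes Ndufs5, Ndufaf3, Ndufa4l2 and Atp5e were called under all 16 alternatives. Each of these has 1 probe set under its own symbol, so the mean of probe sets per gene could not change its difference. The probe set shared by Ndufs5 and a pseudogene, with a log2 difference of -0.15, entered no alternative. Cox7a1 was called under 14 and had no value under the others, both of them filters. The other 20 all lost the call without scaling. No called gene changed sign. Of 63 uncalled genes 8 were called under at least 1 alternative and 32 changed sign.

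Without scaling 5 genes were called higher in all (2 in complex I, 0 in II, 0 in III and 1 in V), with 1 lower in complex III, 0 lower in complex IV and 20.2% of all tested genes called. The medians were then 0.025 over all, 0.066 in complex I, 0.21 in II, 0.31 in III, -0.026 in IV and -0.11 in V. Median scaling gave 0 lower, so 0 in complex IV, and medians of 0.56 in complex II and 0.66 in III. Quantile normalization gave 0 lower, 0 in complex IV, 3 higher in complex III and medians of 0.25 in complex I, 0.43 in II and 0.41 in III. Cyclic loess gave 0 lower, 0 in complex IV, 3 higher in complex III and medians of 0.21 over all, 0.24 in complex I, 0.42 in II and 0.43 in III. An offset of 32, no filter and no trend each left 0 lower, 0 in complex IV, and no filter called 22.9% of all genes. With the mean of probe sets per gene 2 genes were lower, 1 of them in complex III, 0 were higher in complex II, and the medians were 0.35 in complex II and 0.72 in III. The cause of these shifts was not tested.

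Leaving out each array in turn gave 0 to 2 lower genes in all, 0 to 1 in complex I and 0 to 2 in complex IV, and 2 to 5 higher genes in complex III. The medians ran from 0.21 to 0.41 over all, 0.30 to 0.43 in complex I, 0.46 to 0.57 in II, 0.33 to 0.70 in III, 0.065 to 0.36 in IV and 0.053 to 0.36 in V. The median of complex V, 0.18 with all arrays, rose to 0.36 when L929 replicate 2 was left out and to 0.33 when NIH3T3 replicate 1 was. The labels do not say whether equal replicate numbers pair the samples, and the numbers were not used as pairs in the main fit. The differences between replicates of the lines correlated at 0.014 over genes. That value cannot settle the point, since each line gives a single difference. With the replicate as a block 23 genes were called higher, the lost call being Uqcrb. With 2 arrays per line, and with weak probe sets near the filter level, small differences were not resolved.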

Other observations

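Some respiratory genes have near copies in the mouse genome, and 10 probe sets are annotated to several symbols at once, at least 1 of them by the naming rule of the respiratory genes. Such a probe set belongs to no single gene and entered no count. The probe set shared by Ndufs6, an accessory subunit of complex I, and Ndufs6b measured 1852 and 1772 in L929 and 981 and 837 in NIH3T3 and was called higher in L929 (log2 difference 0.99, adjusted p = 3.3e-04). A pair of probe sets shared by Ndufb4, Ndufb4b and Ndufb4c, subunits or copies of the membrane arm, were both higher on the L929 arrays. The first measured 1394 and 1249 in L929 and 899 and 848 in NIH3T3 and was called (log2 difference 0.59, adjusted p = 0.0036). The other measured 1525 and 1412 in L929 and 1183 and 1217 in NIH3T3 and was not (log2 difference 0.29, adjusted p = 0.073). The stronger probe set shared by Ndufa11 and Ndufa11b measured 1497 and 1542 in L929 and 1518 and 1364 in NIH3T3 and overlapped between the lines.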
